A study of Mus musculus with 4 samples.

Results

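The genes described here are the 2 mouse hepcidin genes, Hamp and Hamp2, and 8 genes that set hepcidin or move iron: Tfr2, Hfe, Bmp6, Tmprss6, Smad7, Slc40a1, Trf and Tfrc. Their DNA methylation was read in liver by reduced representation bisulfite sequencing, which cuts DNA with restriction enzymes and reads the CpGs near the cuts after unmethylated cytosines have been converted. The mice were 6-week-old C57BL6/N animals. 2 libraries came from Pnpla7+/+ liver (WT) and 2 from Pnpla7-/- liver (KO), which lacks a lysophospholipase that breaks down lysophosphatidylcholine. The comparison concerns the effect of this loss on the liver methylome. The labels do not say how the allele was made, which cells lack it, or whether each library stands for its own animal. The p-values of tiles, windows and regions therefore measure only how far these libraries differ, which may be technical, and those of single CpGs reflect read counts.

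A CpG belonged to a gene when it lay in the gene's body on build mm10 or within 10 kb either side. It was analysed when it had at least 10 reads, strands summed, in every library. This gave 944 analysed CpGs of the 1617 listed there, out of 1600691 analysed CpGs in the genome. The genes were selected on the measured methylation of a window at one end of Hamp, which differed between genotypes, so the values of Hamp are given as a description, without a p-value. At the depth threshold, 44 CpGs of these genes had 10 reads in their shallowest library and mean levels of 55.1% in WT and 59.3% in KO. The 41 CpGs just below, with 9 reads, had 58.4% in both.

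Depth summed over all listed cytosines was 50413170 to 60535892 per library, a read counting once for each cytosine it covers, and was lowest in WT replicate 1. The libraries had a median of 21 to 25 reads at an analysed CpG. If 5 of 10 reads are methylated, the level is known to between 18.7% and 81.3% (95% exact Clopper-Pearson), and 0 of 10 allows up to 30%. These limits cover counting error only. The mean level over all gene regions was 49.6% and 49.4% in WT and 49.9% and 50.0% in KO. Hepatocyte marker genes were below 20% in WT at 4 of 5 measured gene ends, Kupffer cell and leukocyte markers at 0 of 6, stellate cell markers at 4 of 5, the endothelial marker at 1 of 1 and cholangiocyte markers at 3 of 6, beside 68.9% of all gene ends, so these levels do not check the labelled tissue. The tissue is a mixture of cells, so a different share of a cell type and a different level within it cannot be told apart.

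Hepcidin is the liver hormone that lowers iron in blood. It binds ferroportin, the iron exporter encoded by Slc40a1, and causes its removal from the cell surface. Hepatocytes transcribe Hamp in response to BMP6, a ligand made by liver endothelium, through SMAD proteins, and in response to interleukin 6 through STAT3. HFE and transferrin receptor 2 report iron-loaded transferrin to this pathway, while the protease encoded by Tmprss6 and the inhibitory SMAD7 restrain it.

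The promoters of both hepcidin genes are shown because the best known control elements of the pathway lie there and because the libraries did not read them. They are the 250 bases before the gene start, 5′ to 3′ on the gene's strand, from RefSeq on GRCm38.p6, the assembly of mm10. Capitals mark the BMP response element of Hamp, GGCGCC, with the bases aligned to it in Hamp2, and the STAT element, searched as TTCNNNGAA; both patterns read the same on either strand and do not overlap.
Hamp, chr7:30944030-30944279, minus strand: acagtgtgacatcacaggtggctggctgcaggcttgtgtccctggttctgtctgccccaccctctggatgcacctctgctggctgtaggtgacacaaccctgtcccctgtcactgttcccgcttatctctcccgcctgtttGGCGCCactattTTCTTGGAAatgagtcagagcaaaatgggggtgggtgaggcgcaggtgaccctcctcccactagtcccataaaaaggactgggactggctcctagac
Hamp2, chr7:30924182-30924431, minus strand: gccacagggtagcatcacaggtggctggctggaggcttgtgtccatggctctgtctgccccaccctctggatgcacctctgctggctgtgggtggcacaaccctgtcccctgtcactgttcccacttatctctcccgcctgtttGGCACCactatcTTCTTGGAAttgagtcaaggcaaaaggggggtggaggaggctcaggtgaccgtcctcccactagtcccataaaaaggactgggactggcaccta
The 2 promoters were identical at 227 of 253 aligned columns, or 89.7%. The BMP element began 109 bases before the start of Hamp, and its copy in Hamp2 carried the substitution G4A, counted from 1 at the element's 5′ end, so the CpG in it was present in Hamp and not in Hamp2. Of 32851 promoters of this length, 9.59% held GGCGCC and 7.02% held TTCNNNGAA. These 250 bases held 4 CpGs in Hamp and 2 in Hamp2, and none of them was listed in any library. Neither promoter held a CCGG or TCGA, the sites of the enzymes MspI and TaqI that cut these libraries, whereas 47.1% and 18.5% of all promoters did. Methylation at the control elements within these 250 bases was therefore not measured here.

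The 12 analysed CpGs of Hamp (chromosome 7, 30942368 to 30944029, minus strand) fell into 4 clusters, 3 of them higher in KO. The cluster past the gene's 3′ end held 3 CpGs from 30941746 to 30941812, which lie 556 to 622 bp beyond the gene. Its level was 57.0% and 57.3% in WT on 100 and 96 reads, and 89.7% and 84.4% in KO on 87 and 90 reads. The groups did not overlap, and the means were 57.1% ± 0.206 for WT and 87.0% ± 3.68 for KO (SD, n = 2), a difference of 29.9 percentage points. Within the gene body 2 CpGs, at 30942764 and 30942920, had 74.4% and 76.5% in WT and 89.1% and 86.3% in KO. Upstream of the start, 3 CpGs from 30945298 to 30945437 had 52.0% and 48.3% in WT and 78.1% and 63.0% in KO. These 3 CpGs lie 1269 to 1408 bp before the start of Hamp and inside the neighbouring gene Usf2, which encodes a transcription factor. Here too the genotypes did not overlap, although KO replicate 1 was well above KO replicate 2. The most distant cluster, 4 CpGs from 30952560 to 30952607 in Usf2, was near full methylation in all libraries, with 91.8% and 97.8% in WT and 97.1% and 92.4% in KO.

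Single CpGs near Hamp differed in size but mostly not in direction. The CpG at 30941750 had 50.0% and 57.1% in WT on 44 and 42 reads and 92.3% and 82.1% in KO on 39 reads each. On the forward strand alone it was 55.0% and 60.0% in WT against 100% and 85.7% in KO, and on the reverse strand 45.8% and 55.6% against 85.7% and 80%, so both strands gave the same order. Its neighbour 30941812 had 46.9% in either WT library and 80% and 75.9% in KO. The CpG at 30945437 had 28.6% and 24.1% in WT and 68.8% and 45.9% in KO, but its strands differed in KO replicate 2, with 14.3% on the forward strand and 65.2% on the reverse. At 30945298 the libraries overlapped, with 90.9% and 62.5% in WT and 81.2% and 69.6% in KO. They also overlapped at 30942764 in the gene body, with 72% and 90.3% in WT and 90% and 92.3% in KO. Some CpGs were read too thinly to be analysed: 30941405, with 4 to 6 reads a library, had 0% in the WT libraries and 75% and 50% in KO, and a group from 30945658 upstream was at 20% or less in every library. Neighbouring CpGs here share reads, so they are not separate measurements.

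The 1-kb window at the 3′ end of Hamp, which holds 5 of these CpGs, had 64.6% and 66.1% in WT on 178 and 177 reads and 89.4% and 85.4% in KO on 151 and 185 reads. A feature was called when its adjusted p was under 0.05 and the groups differed by at least 10 points. The window, the downstream 1-kb tile and the CpG at 30941750 were the called features of the 10 genes, and all 3 hold the same downstream reads. In the genome 0.0773% of gene-end windows, 0.149% of tiles and 0.0403% of CpGs were called. Because the Hamp window chose the genes, these calls are listed for completeness and nothing is read from them. The window call was lost without WT replicate 1, WT replicate 2 or KO replicate 1, and the tile call without KO replicate 1; the Hamp window differed by 20.1 to 24.05 points over the 4 omissions.

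**Figure D1:**
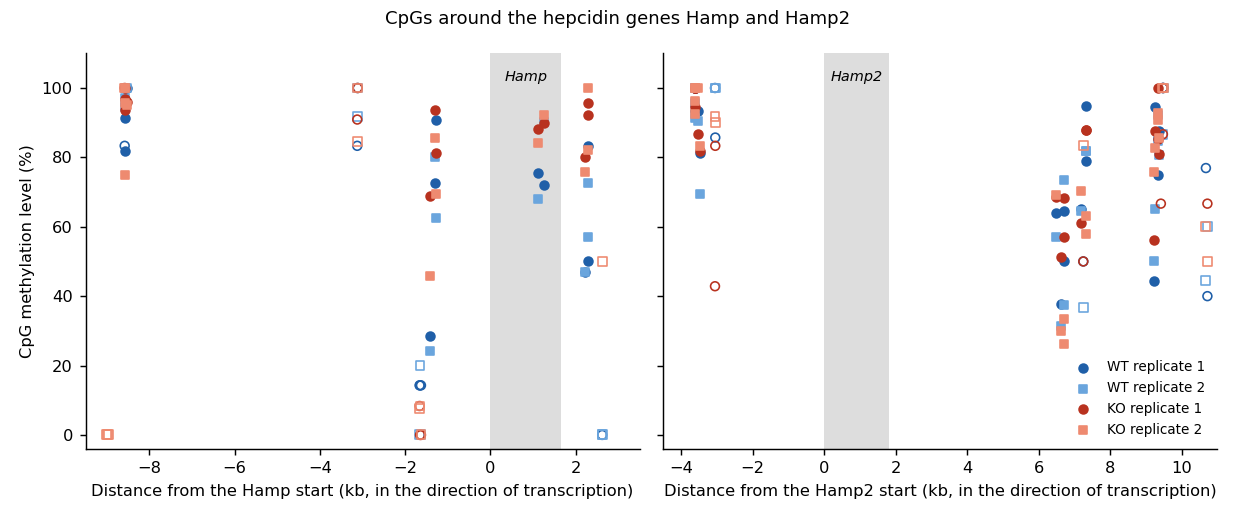
Methylation level (percent, vertical axis) of CpGs near Hamp and Hamp2 against the distance from each gene's start in kb, 1 point per CpG and library. Filled points are analysed CpGs, and grey marks the gene body. Open points are CpGs with fewer than 10 reads in at least 1 library, and points with fewer than 5 reads are not drawn. In the cluster past the 3′ end of Hamp the filled points run from 46.9% to 83.3% in WT and from 75.9% to 100% in KO. Reads pooled over these CpGs give levels near 57% in the WT libraries and 84.4% and 89.7% in the KO libraries. No point falls on either promoter.

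Hamp2 (chromosome 7, 30922372 to 30924181, minus strand), the second hepcidin gene of the mouse, did not share this pattern in its analysed CpGs, which lay farther out. Its 18 analysed CpGs all lay in the flanks, and neither gene end had a window with enough CpGs. Counted from the gene start, the nearest lay at -3488 and 6480 bp. The differing Hamp clusters lay between -1408 and 2283 bp from the Hamp start, so Hamp2 was not compared at matching positions. The mean of the 18 CpGs was 78.3% and 74.8% in WT and 80.8% and 75.0% in KO, so the replicates of a genotype were farther apart than the genotypes (difference 1.33 points, SE 2.44, limma adjusted p = 0.938). The largest tile difference was 6.45 points, with 78.6% and 77.8% in WT and 83.3% and 86.0% in KO (adjusted p = 0.833). That tile spans one end of the neighbouring gene Mag, and its CpGs at 30914936 and 30914970 lie outside Mag. The Hamp and Hamp2 regions share 0 analysed CpGs. The genes are near-identical copies in part, and whether the aligner could place reads in the wrong copy was not tested.

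Among the genes that sense iron, Tfr2 (chromosome 5, 137569822 to 137588081, plus strand), the receptor of hepatocytes for iron-loaded transferrin, had 34 of its 68 CpGs above 80% in WT, 30 between 20% and 80% and 4 below 20%. Over these CpGs the mean was 73.2% and 76.3% in WT and 76.9% and 76.1% in KO (difference 1.75 points, SE 1.05, limma adjusted p = 0.724), and the difference was 0.235 without WT replicate 1. In the gene body the tile from 137571001 had 45.1% and 55.6% in WT and 61.3% and 60.5% in KO, 10.6 points higher in KO and not called (adjusted p = 0.733). This tile difference was 5.39 points without WT replicate 1, the lowest of the 4 libraries. The opposite order was seen beyond the gene, where the tile from 137597001 in Mospd3 had 86.8% and 88.4% in WT and 75.7% and 82.1% in KO (adjusted p = 0.213). That tile holds a CpG at 137597029 with 65.6% and 80.4% in WT and 46.4% and 39.6% in KO, named after its values were seen. Its adjusted p was 0.06, and it was called when the minimum was raised to 20 reads. No CpG of the 3 listed Tfr2 promoters was read, and neither gene end had a window with enough CpGs.

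The region of Hfe (chromosome 13, 23702034 to 23710854, minus strand), whose product binds the transferrin receptor, was weakly methylated. Of its 27 CpGs, 14 lay in the flank tile from 23698001, which holds the neighbouring gene H4c3. That tile had 2.49% in WT and 2.97% in KO. The body of Hfe held 6 CpGs, with means of 14.1% in WT and 14.8% in KO. Over the 27 CpGs the mean was 19.9% and 19.5% in WT and 19.6% and 21.5% in KO, with the 2 genotypes overlapping (difference 0.809 points, SE 1.25, limma adjusted p = 0.920). The window at the start of Hfe was almost unmethylated (0.201% in WT, 0.420% in KO). Its largest tile difference was 2.54 points (adjusted p = 0.951).

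Bmp6 (chromosome 13, 38345716 to 38500314, plus strand), the iron-responsive ligand, had 15 analysed CpGs in its proximal promoter, against 0 in those of the other 5 genes with a promoter sequence here. The 250 bases before its start are shown with these CpGs in capitals, of 22 CpGs in all.
Bmp6, chr13:38345466-38345715, plus strand: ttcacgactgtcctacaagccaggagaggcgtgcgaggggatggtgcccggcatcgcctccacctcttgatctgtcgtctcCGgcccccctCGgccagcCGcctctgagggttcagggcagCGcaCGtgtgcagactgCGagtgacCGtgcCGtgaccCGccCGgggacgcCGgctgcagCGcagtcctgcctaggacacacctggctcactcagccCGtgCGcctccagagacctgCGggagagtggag
It held 4 MspI sites. The 15 CpGs averaged 1.33% and 1.04% in WT and 1.79% and 1.29% in KO, so the promoter was almost free of methylation in every library. The 88 CpGs within 1 kb of the start gave 1.34% in both genotypes. Over the whole region of 191 CpGs the means were 45.4% and 46.3% in WT and 46.3% and 46.5% in KO (difference 0.542 points, SE 0.411, limma adjusted p = 0.794). The widest tile difference, from 38404001 in the body, overlapped between genotypes, with 63.0% and 72.0% in WT and 68.1% and 56.5% in KO.

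Of the 2 inhibitors of the pathway, Tmprss6 had the lowest region p of the 9 genes tested and Smad7 the smallest region difference. Tmprss6 (chromosome 15, 78439667 to 78468648) encodes matriptase-2, the protease that lowers BMP signalling at the hepatocyte surface. Of its 99 CpGs, 70 lay in the flanks, and the neighbouring gene Kctd17, from 78428564 to 78439303, lies in the lower-coordinate flank. The 99 CpGs averaged 58.0% and 58.6% in WT and 60.7% and 60.6% in KO. Both KO libraries lay above both WT libraries, but the difference of 2.36 points (SE 0.468) was not called (limma adjusted p = 0.384). The tile from 78473001, beyond the gene's higher-coordinate end, had 51.9% and 51.5% in WT and 71.0% and 62.0% in KO (adjusted p = 0.584). In the body, the tile from 78456001 had 14.1% and 21.4% in WT and 27.0% and 28.7% in KO (adjusted p = 0.772). The window of 8 CpGs at the lower-coordinate end of the gene reached into Kctd17. Its level was 63.9% ± 0.805 for WT and 68.5% ± 2.66 for KO (SD, n = 2, adjusted p = 0.882). Without KO replicate 1 the KO mean of this window exceeded the WT mean by 2.66 points. In the body as a whole, 29 CpGs had a mean of 53.6% in WT and 58.4% in KO, beside 60.2% and 61.6% in the flanks. Tmprss6 lies inside a stretch of chromosome 15 in which 34 scattered CpGs, each with at least 5 reads per library, were at most 10% in WT and at least 70% in KO in every library. The nearest of them was 159 kb away, and 0 lay in the Tmprss6 region; their part in the Tmprss6 values was not tested.

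Smad7 (chromosome 18, 75367365 to 75395935), the inhibitory SMAD induced by the pathway, had the most CpGs, 333, of which 263 were below 20% in WT. The region averaged 16.6% and 16.3% in WT and 16.5% and 16.4% in KO (difference 0.0349 points, SE 0.317, limma adjusted p = 0.993). Its end window of 123 CpGs was almost unmethylated (0.249% in WT, 0.312% in KO). Inside the body, the tile from 75384001 had the largest difference of the Smad7 tiles. It had 24.8% and 25.1% in WT on 330 and 407 reads and 35.9% and 33.5% in KO on 446 and 486 reads. The groups did not overlap, with means of 25.0% ± 0.151 for WT and 34.7% ± 1.65 for KO (SD, n = 2). The difference of 9.75 points was not called (adjusted p = 0.148). With the deepest CpGs left out it was 8.09 points (adjusted p = 0.340). Of the 25 Smad7 tiles, 11 were higher in KO and 14 lower. Both KO libraries were above both WT libraries in 2 and below in 4. The body tile from 75374001 had 57.9% and 49.6% in WT and 46.8% and 47.2% in KO (adjusted p = 0.909).

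The transport genes Slc40a1, Trf and Tfrc were each almost unmethylated at one gene end, and none of their tiles was called. Slc40a1 (chromosome 1, 45908070 to 45926532), the ferroportin gene, had 1.56% in WT and 1.38% in KO over 33 CpGs at one gene end, and its region averaged 14.4% and 14.6% in WT and 15.3% and 15.04% in KO (difference 0.691 points, SE 0.725, limma adjusted p = 0.866). Its tile from 45912001, in the body, had 50.0% and 56.0% in WT and 68.2% and 68.9% in KO, a difference of 15.6 points (adjusted p = 0.563). Trf (chromosome 9, 103208876 to 103230286) encodes transferrin, the iron carrier of blood. Its 121 CpGs averaged 41.1% and 41.8% in WT and 45.2% and 42.4% in KO, both KO libraries above both WT libraries (difference 2.40 points, SE 0.911, limma adjusted p = 0.555). Without KO replicate 1 the Trf difference was 0.997 points, and without KO replicate 2 it was 3.80. In the body the tile from 103223001 had 44.6% and 37.5% in WT and 60.8% and 52.6% in KO (adjusted p = 0.722). The end window of Trf was at 0.407% in WT and 0.641% in KO. Tfrc (chromosome 16, 32608896 to 32632794, plus strand), the cellular receptor for transferrin, was the single gene with a lower region mean in KO, from 28.2% and 28.5% in WT to 28.3% and 25.1% in KO. The genotypes overlapped (difference -1.58 points, SE 1.45, limma adjusted p = 0.838). Its 15 CpGs at the start were at 0.290% in WT and 0.0911% in KO. The tile from 32640001, past its 3′ end, had 86.4% and 89.8% in WT and 81.7% and 80% in KO (adjusted p = 0.840).

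**Figure D2:**
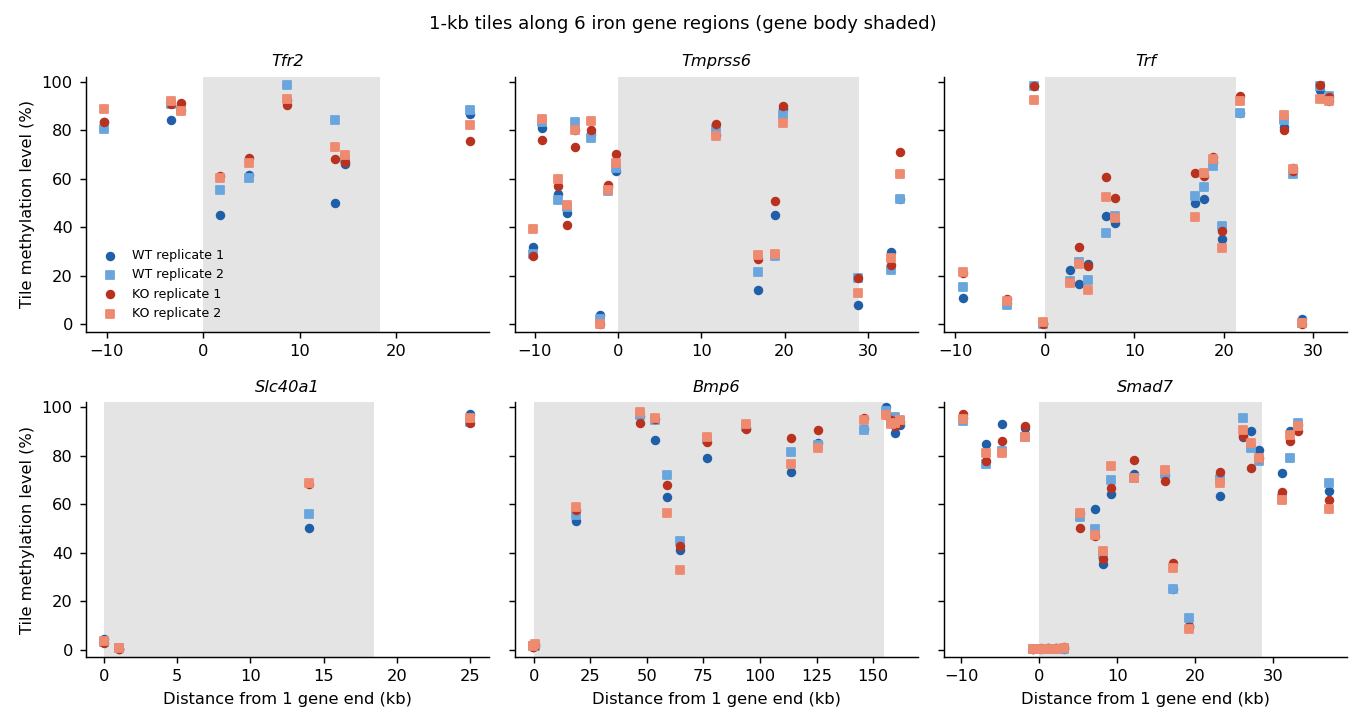
Methylation level of 1-kb tiles (percent, vertical axis) against the distance in kb from one end of the gene for 6 of the iron genes, 1 point per tile and library, with the gene body shaded. In Smad7, Slc40a1 and Bmp6 the tiles nearest that end, and in Trf the tile across it, lie close to 0 in all 4 libraries. The next Trf tile outside the gene lies at 92.4% to 98.4%.

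Across the 10 gene regions the KO mean was higher in 9 and both KO libraries were above both WT libraries in 5, namely Hamp, Tmprss6, Trf, Slc40a1 and Bmp6. Hamp was selected on its methylation, and without it 8 of 9 regions were higher and 4 had both KO libraries above. Among all 30562 gene regions 59.2% were higher in KO and 24.7% had both KO libraries above. No region of the 10 was called, against 0.00982% of all regions. In WT the highest mean levels were those of Hamp2, Tfr2 and Hamp, which did not differ beyond the spread of their libraries, followed by Tmprss6, Bmp6, Trf, Tfrc, Hfe, Smad7 and Slc40a1. The mean of the Hamp region moved with the depth minimum, its difference of 12.3 points being 6.94 at a minimum of 5 reads and 20.8 at 20 reads. The median difference of the 10 regions was 1.07 points, and 0.809 without Hamp, beside 0.203 over all regions.

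**Figure D3:**
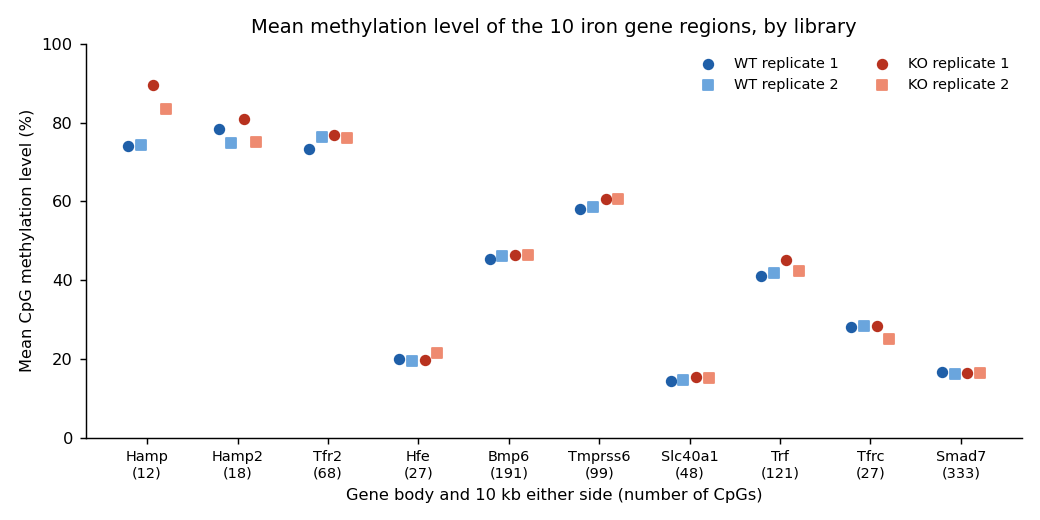
Mean methylation level (percent) over the analysed CpGs of each of the 10 gene regions, 1 point per library, WT and KO side by side. Hamp is the region with the widest gap, 74.0% and 74.4% in WT against 89.7% and 83.4% in KO, and the next largest difference of means is 2.40 points, in Trf.

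The 103 tiles of these genes gave the same picture on a finer scale. Without the 3 tiles of Hamp, 60 of 100 were higher in KO and 40 lower, beside 53.9% of all tiles higher, and 0 were called. Both KO libraries were above both WT libraries in 20 and below in 10, beside 19.5% and 14.9% of all tiles. The share with both KO libraries above was close to that of the genome, and the share below was lower. Among tiles with a mean level of 20% to 80%, 30 of 43 were higher in KO, 13 had both KO libraries above and 2 below, and the median difference was 2.41 points. Over all 45320 such tiles 55.9% were higher, 22.2% above, 14.6% below, and the median was 0.847. Of the 932 CpGs outside the Hamp region 0 were called, 106 had both KO libraries above and 74 below, beside 11.5% and 10% of all CpGs.

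**Figure D4:**
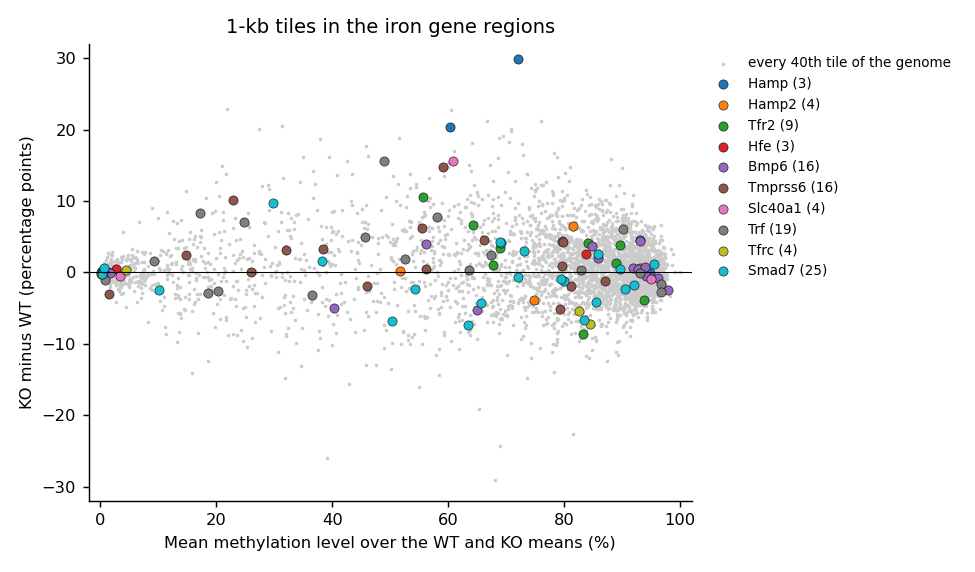
KO minus WT difference (percentage points, vertical axis) of each 1-kb tile against its mean level (percent), coloured by gene, with every 40th tile of the genome in grey. The called Hamp tile stands at 29.9 points, and the largest difference of any other gene is 15.6 points, in Slc40a1 and in Trf.

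A further list of 40 iron genes, which covers BMP receptors, SMADs, transcription factors of Hamp, ferritins, haem and iron transporters and iron regulatory proteins, gave 39 genes in the annotation. At their gene ends 15 of 31 tested windows were higher in KO and 16 lower, beside 51.1% of all windows higher. None was called, the median was -0.00115 points, and 30 of the 32 measured were below 20% in WT. The windows with the smallest p were those of Smad5, a signal transducer of the BMP pathway, at 6.09% in WT and 7.68% in KO (adjusted p = 0.370), and Furin, the convertase that cleaves hepcidin precursor, at 57.4% and 48.9% (adjusted p = 0.666). In the regions around these genes 176 of 344 tiles were higher in KO, beside 53.9% of all tiles. The 1 called tile among them is the downstream Hamp tile, which lies within 10 kb of Usf2.

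Marker genes of liver cells were measured beside these results, with 0 called windows, tiles or regions in any list. The 10 hepatocyte marker regions averaged 49.8% and 49.2% in WT and 52.4% and 50.0% in KO. Of these regions 9 were higher in KO, beside 59.2% of all regions. At the 5 measured hepatocyte gene ends the mean ran from 20.6% to 23.0% in WT and from 23.3% to 27.2% in KO. The 8 Kupffer cell and leukocyte regions averaged 60.5% and 61.3% in WT and 61.8% and 62.0% in KO, with 5 higher. Their 6 measured gene ends went the other way, at 70.5% and 69.4% in WT and 69.1% and 66.8% in KO, with 2 higher and 4 lower. Endothelial marker regions averaged 64.1% and 64.2% in WT and 63.4% and 65.1% in KO, stellate cell markers 49.3% and 48.7% against 48.5% and 49.0%, and cholangiocyte markers 46.3% and 45.6% against 48.4% and 44.4%. The region means of the hepatocyte markers and of the Kupffer cell and leukocyte markers were thus higher in both KO libraries. So was the mean over all gene regions, at 49.6% and 49.4% in WT and 49.9% and 50.0% in KO. The part of any cell type in the Hamp values was not tested.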

How the data were processed

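Liver DNA was digested with the enzymes TaqI and MspI, and the libraries were bisulfite converted, per the labels' protocols. For each of 4 libraries the authors deposited a track of methylation levels, as a fraction with a minus sign on the reverse strand, and one of read depth, on mm10 and from the program GBSA per the file headers. BWA 0.7.12 and MACS appear in the submitters' processing notes, with no role stated; filters and settings are not stated. Methylated reads per CpG were level times depth, whole at all positions within 1e-06, with strands summed.

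Reads were summed over CpGs, 1-kb tiles and windows reaching 1 kb to both sides of whichever gene end had more listed CpGs (at least 3 analysed CpGs each). Each was tested over the whole genome with a quasi-binomial model, its Pearson dispersion shrunk as in limma 3.58.1 but never under 1, by two-sided quasi-likelihood F tests with p-values adjusted after Benjamini and Hochberg; "adjusted p" without a named tool means this. At single CpGs the model gave all CpGs 1 dispersion, 1.09, so their p reflects reads and not the spread at that CpG. Gene regions were compared with limma on mean CpG levels, each CpG weighted equally, with a 5-point minimum for a call. Scripts used R 4.3.3, pandas 2.3.3 and Biopython 1.88, and the model was tested on simulated data. Gene ends and names came from a RefSeq table of GRCm38.p6; promoters with strand were found for 6 of the 10 genes.

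The genes, lists and tests were chosen with earlier results of these data known. All 10 genes are named, with their region, end window (8 genes had one), called features and the tile of largest difference with at least 20 reads in every library; other tiles were named after their values were seen. Replicate numbers did not pair the libraries. Alternatives covered depth minimums, the deepest CpGs or each library left out, size of difference, window shape, tests and a block for the replicate numbers.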

Additional observations from a re-analysis of the deposited data

How the results depend on the processing

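The counts of called features among the 10 genes were 1 CpG, 1 tile, 1 window and 0 regions, all at Hamp. The CpG count was 2 at a minimum of 20 reads, which added the CpG at 137597029 near Tfr2. It was 0 with a prior for the spread taken from variable features only, and 0 to 0 with each library left out. The tile count was 0 when mean levels were tested with limma, which called 0 tiles in the genome, and 0 to 1 with each library left out. The window count was 0 with that prior, 0 with windows of 500 bp, 0 at the other gene end and 0 at gene starts by strand (chosen after seeing the data), and 0 to 1 with each library left out. No 500-bp window could be formed at the 3′ end of Hamp, which had fewer than 3 analysed CpGs within that distance. The window around the Hamp start held no listed CpG. The counts at 500 bp, at the other gene end and at gene starts thus include no Hamp window, and their 0 is not a lost call. Gene-start windows could be formed for 3 genes. The region count was 0 throughout.

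With the replicate number as a block the counts were again 1 CpG, 1 tile, 1 window and 0 regions. The numbers share no source in the labels, and deviations of same-numbered libraries had a correlation of -0.0102 over 45320 tiles. In the genome the block moved the calls from 244 to 406 tiles, from 16 to 40 windows and from 509 to 376 CpGs. Over all alternatives these ranged from 0 to 406 tiles, 4 to 40 windows, 98 to 574 CpGs and 0 to 5 regions.

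Small differences turned direction. With CpGs weighted by reads the regions of Bmp6 and Slc40a1 were at -0.404 and -0.756 points. At a minimum of 5 reads the Bmp6 region was at -0.0595, the Bmp6 window at -0.146 and the Tfr2 region at -0.823. At 20 reads the Hamp2 region was at -1.15, the Tfr2 region at -1.43 and the Slc40a1 window at 0.411. The other end of Smad7 was at -0.866. With each library left out, the ranges that crossed 0 were -11.1 to 0.542 (Bmp6 tile from 38404001), -0.163 to 0.165 (Bmp6 window), -1.58 to 4.25 (Hamp2 region), -0.123 to 1.74 (Hfe region), -0.392 to 5.46 (Hfe tile from 23717001) and -0.201 to 0.640 (Hfe window). They were also -0.491 to 0.139 (Slc40a1 window), -0.124 to 0.194 (Smad7 region), -0.0413 to 0.167 (Smad7 window), -3.18 to 0.0137 (Tfrc region) and -0.188 to 0.657 (Trf window). The cause was not tested. With 2 libraries a genotype, a depth near 25 reads per CpG limits single-CpG calls to large differences.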
